A study of Mus musculus with 6 samples.

Results

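The replication-dependent histone genes are the 62 rows of the deposited table, of 27634 genes in all, whose symbol starts with Hist1h, Hist2h, Hist3h or Hist4h. They were chosen by symbol alone, and the symbol also gives the class of the histone. By class, 6 rows are of the linker histone H1, 15 of H2A, 18 of H2B, 11 of H3 and 12 of H4. The 18 H2B rows include Hist3h2bb-ps, whose symbol marks a pseudogene. By cluster, 50 genes belong to Hist1, 8 to Hist2, 3 to Hist3 and 1 to Hist4. The study knocked down Satb1, a nuclear protein that organises chromatin, in dendritic cells associated with a tumour in C57BL/6 mice. All mice carried ID8-Defb29/Vegf-a, a mouse ovarian carcinoma line, for 32 to 38 days, and received 100 µg of siRNA over that time.

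The study sequenced a high and a low experiment, here named as in the labels. In the high experiment, 2 libraries came from cells of mice given Satb1 siRNA in Rhodamine-conjugated polyethylenimine nanocomplexes (high Satb1 siRNA) and 2 from cells of mice given non-targeting siRNA (high NT). In the low experiment, where the labels state a lesser downregulation, there was 1 library with Satb1 siRNA (low Satb1 siRNA) and 1 with non-targeting siRNA (low NT). The labels do not say how the cells were sorted or how many mice gave each library. For all 6 libraries they state Trizol extraction and a TruSeq Stranded Total RNA kit.

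Replication-dependent histone genes supply the proteins that package newly made DNA, and their mRNA level is known to rise in S phase and to fall when DNA synthesis ends. Their genes lie in clusters, have no introns, and their mRNAs are the well-known exception among animal mRNAs: most end in a conserved stem-loop in place of a poly(A) tail. The stem-loop-binding protein SLBP holds that stem-loop, the U7 small nuclear ribonucleoprotein directs the cut behind it, and some histone genes are known to give longer, polyadenylated transcripts that read past it, mainly in cells that have stopped dividing.

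The stem-loops are shown because the members fell into sharply different levels in the low libraries, and these letters, with the length of annotated transcript behind them, describe the 3′ ends of the members concerned. A 16-base motif (GG, NN, CTTTT, N, AG, NN and CC in that order, N being any base) was searched on the transcribed strand of GENCODE M21 transcripts (build GRCm38), and capitals mark it below. It was found in 39 of the 62 members, all of which had an annotated transcript. Among all protein-coding genes of that annotation, 72 of 21877 (0.3291%) held it, and 44 of those 72 have a symbol of the same 4 clusters. The most frequent form, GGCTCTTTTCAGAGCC, occurred in 22 members, and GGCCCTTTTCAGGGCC in 6, all of them H4 genes. No match says only that these letters are not in the annotated transcript, which for some members stops near the end of the coding sequence.
Hist3h2a, chr11:58955167-58955192, plus strand: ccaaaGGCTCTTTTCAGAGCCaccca
Hist1h1c, chr13:23739507-23739532, plus strand: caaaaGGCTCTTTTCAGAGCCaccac
Hist2h3c1, chr3:96247322-96247347, plus strand: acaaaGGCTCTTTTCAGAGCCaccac
Hist1h2ab, chr13:23751567-23751592, plus strand: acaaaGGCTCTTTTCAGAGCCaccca
Hist1h3b, chr13:23752815-23752840, plus strand: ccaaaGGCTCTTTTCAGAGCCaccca
Hist1h4f, chr13:23551286-23551311, minus strand: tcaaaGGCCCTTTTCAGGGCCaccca
Hist2h2ac, chr3:96220413-96220438, minus strand: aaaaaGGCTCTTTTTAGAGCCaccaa
In the annotation, 1643 bases follow the stem-loop of Hist3h2a, 840 that of Hist1h1c and 1167 that of Hist2h3c1. Only 11 bases follow it in Hist1h2ab, 51 in Hist1h3b, 33 in Hist1h4f and 57 in Hist2h2ac.

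The libraries held 24553454 to 71272720 counts. Where a gene has no counts, its level may still reach 3 counts, which is 0.0421 to 0.122 CPM (counts scaled to the library total) depending on the library. The repeats within each high group differed little beyond counting noise, with a chi-square per gene of 1.37 for Satb1 siRNA and 1.202 for NT. Each high group is therefore 1 sample of its condition, and p-values in the high experiment measure only the spread between these repeats, which may be technical. The low libraries stood apart from the high ones in composition, with TMM factors of 0.905 (Satb1 siRNA) and 0.708 (NT) against 1.09 to 1.14, and the comparison within the high experiment does not use them. Satb1 itself had 3.56 and 4.08 CPM in high Satb1 siRNA libraries, against 18.2 and 16.7 CPM in high NT libraries (log2 fold change −2.25, SE 0.07, adjusted p = 1.74e-39). In the low experiment Satb1 had 6.72 CPM in the Satb1 siRNA library and 6.29 CPM in the NT library. The low ratio was 0.835 with TMM scaling (exact 95% counting interval 0.67 to 1.04) and 1.07 relative to library size (0.857 to 1.33), so a reduction of Satb1 was not detectable there at this depth. Markers of dendritic cells were detected in all 6 libraries, with none of 11 at 0, and summed to 272 and 270 CPM in high Satb1 siRNA, 386 and 387 in high NT, 2242 in low Satb1 siRNA and 1643 in low NT. Macrophage markers (11, none at 0) summed to 14419 and 14381, 10564 and 10548, 10043, and 15098 CPM in the same order of libraries. In every library they exceeded the dendritic cell sum, but sums of different genes do not measure shares of cells. Lyz2 alone had 9560 and 9550 CPM in high Satb1 siRNA and 6060 and 6070 CPM in high NT. It had 5110 CPM in low Satb1 siRNA and 8670 CPM in low NT. Of the dendritic cell markers, H2-Ab1 alone had 1480 CPM in low Satb1 siRNA and 1210 CPM in low NT.

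The summed level of the histone genes was lower in the high Satb1 siRNA libraries and lower still in both low libraries. All members together made up 913 and 898 CPM in high Satb1 siRNA libraries, against 1532 and 1539 CPM in high NT libraries (log2 ratio of the sums −0.76 relative to library size and −0.82 with TMM). A sum of this kind does not depend on how reads were divided among near-identical histone genes. The low Satb1 siRNA library held 158 CPM and the low NT library 120 CPM. The low siRNA ratio of sums was 0.40 on the log2 scale relative to library size and 0.05 with TMM, so that its size rests on the scaling.

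**Figure D1:**
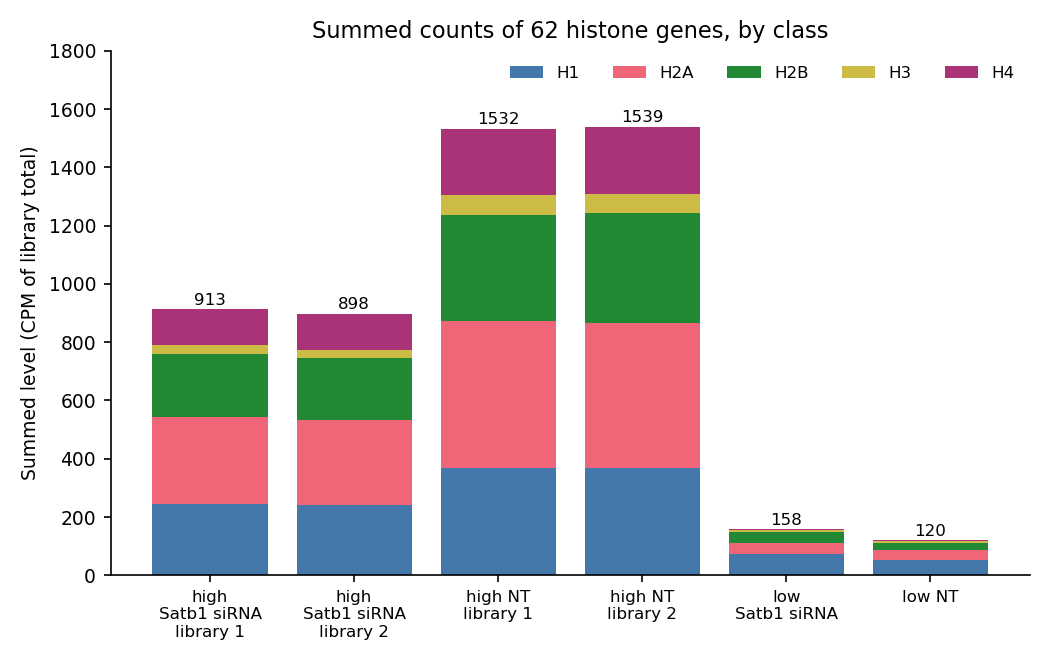
Summed counts of the 62 histone genes in each of the 6 libraries, in CPM of the library total, stacked by class. The Satb1 siRNA libraries of the high experiment reach 913 and 898 CPM against 1532 and 1539 CPM in its NT libraries, and the low libraries 158 and 120 CPM.

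Every class had a lower sum in the Satb1 siRNA libraries of the high experiment. H1 genes summed to 243 and 242 CPM in Satb1 siRNA against 370 and 368 CPM in NT. H2A genes summed to 299 and 291 CPM in Satb1 siRNA against 502 and 500 CPM in NT. H2B genes summed to 217 and 213 CPM in Satb1 siRNA against 365 and 375 CPM in NT. The smallest class by level, H3, fell furthest, with 29.9 and 28.5 CPM in Satb1 siRNA against 66.8 and 66.2 CPM in NT, a log2 ratio of −1.19 against −0.60 for H1. H4 genes summed to 123 and 123 CPM in Satb1 siRNA against 228 and 231 CPM in NT.

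Gene by gene, the fall in the high experiment took in nearly all members. Of the 62 members, 60 passed the filter on low counts, 57 were lower in Satb1 siRNA libraries at an adjusted p under 0.05, none was higher and 3 were not called. Among all 20242 genes tested, 33.2% were lower and 32.8% were higher (66.0% in either direction). With DESeq2 54 members were lower and none higher, and at an unadjusted p under 0.05 in edgeR the counts were again 57 and 0. At least 2-fold lower were 28 members, against 3.94% of all genes tested. The median log2 fold change was −0.98 over the 60 members and 0.01 over all genes. Both Satb1 siRNA libraries lay below both NT libraries in CPM for 58 of the 60 members, against 35.4% of all genes. The medians were −1.01 for H1, −1.43 for H2A, −0.92 for H2B, −1.47 for H3 and −0.92 for H4, and by cluster −1.05 for Hist1, −0.98 for Hist2, −0.59 for the 3 Hist3 genes and −0.74 for Hist4h4.

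**Figure D2:**
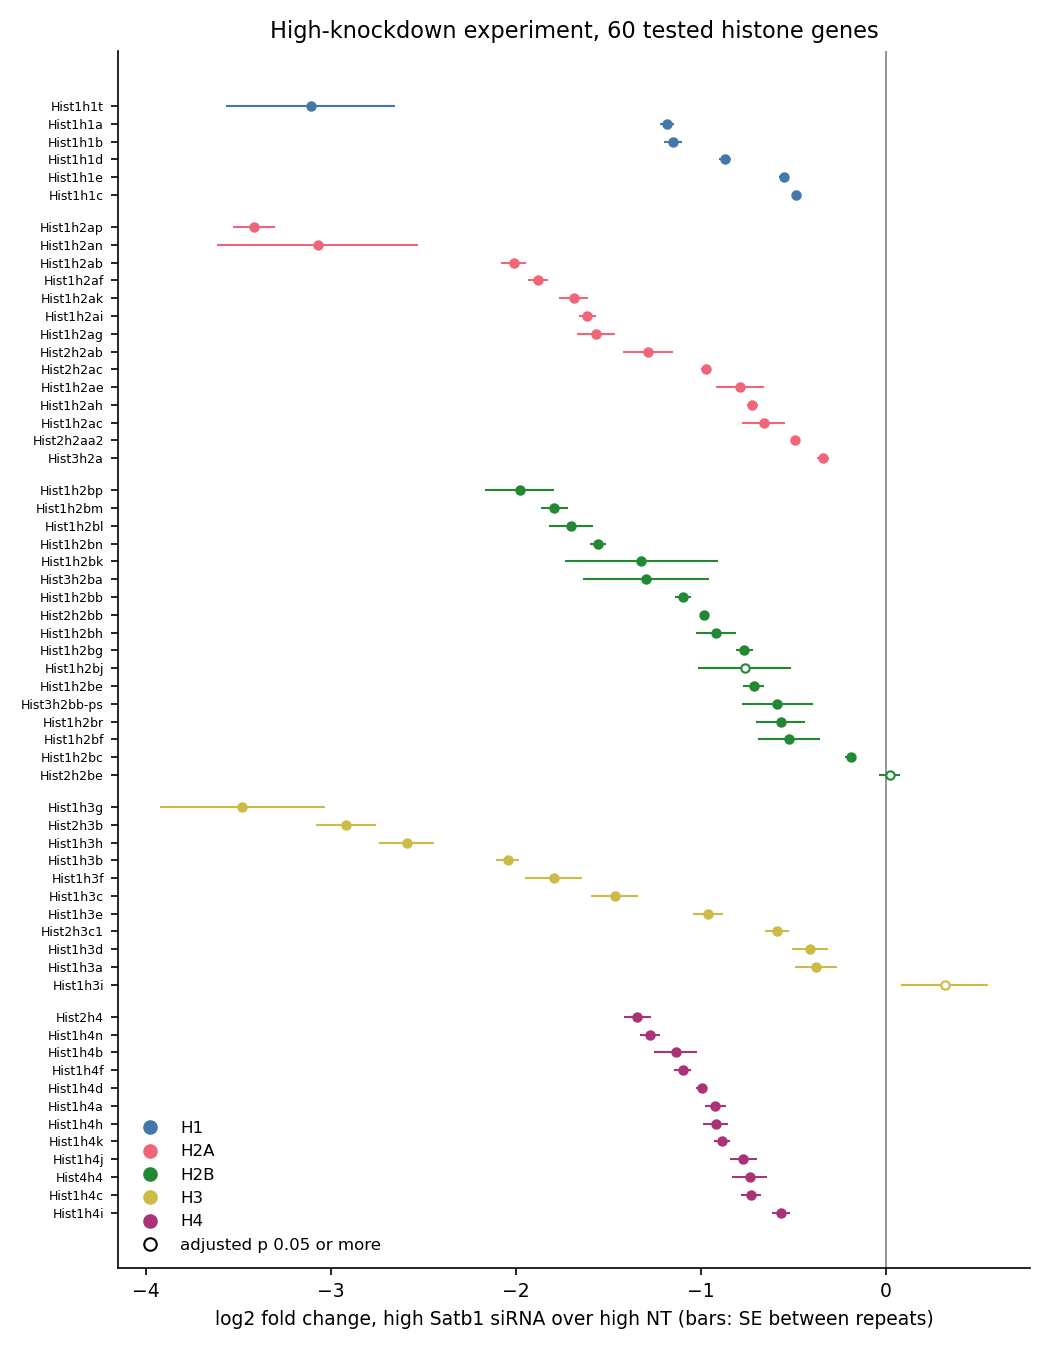
Log2 fold change of high Satb1 siRNA over high NT for the 60 tested members, ordered within each class. Bars are standard errors between repeats and open points are the 3 members not called. Nearly all points lie left of 0, and the H1, H2A and H3 classes reach below −3 on this axis.

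The linker histones bind the DNA between nucleosomes, and all 6 of their genes fell. Hist1h1c, the most abundant of them, had 132 and 133 CPM in high Satb1 siRNA libraries against 179 and 178 CPM in high NT libraries (log2 fold change −0.49, SE 0.02, adjusted p = 1.41e-35). Hist1h1e had 49.4 and 51.4 CPM in Satb1 siRNA against 71.4 and 71.1 CPM in NT (−0.55, SE 0.03, adjusted p = 5.01e-30). Hist1h1d had 31.3 and 29.0 CPM in Satb1 siRNA against 52.7 and 53.6 CPM in NT (−0.87, SE 0.03, adjusted p = 4.16e-36). In none of these genes did the libraries of the groups overlap, and the gap was many times the difference between repeats. Hist1h1a fell further, with 18.9 and 18.6 CPM in Satb1 siRNA against 40.9 and 41.2 CPM in NT (−1.18, SE 0.04, adjusted p = 8.95e-42). Hist1h1b changed by −1.15. Hist1h1t, the testis linker histone, was scarce in every library and had 0.0774 and 0.0408 CPM in Satb1 siRNA against 0.516 and 0.505 CPM in NT.

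H2A pairs with H2B on the outside of the nucleosome core, and all 14 tested H2A genes fell, over a wide range. Hist1h2ap had 0.909 and 1.346 CPM in high Satb1 siRNA libraries against 10.8 and 12.2 CPM in high NT libraries (log2 fold change −3.42, SE 0.11, adjusted p = 5.86e-27). Hist1h2ab had 5.30 and 4.45 CPM in Satb1 siRNA against 19.9 and 18.1 CPM in NT (−2.01, SE 0.07, adjusted p = 5.48e-30). Hist1h2af had 7.52 and 6.30 CPM in Satb1 siRNA against 24.6 and 24.6 CPM in NT (−1.88, SE 0.06, adjusted p = 8.64e-40). The groups stood far apart in all 3 of these genes. For Hist1h2an the NT repeats themselves differed beyond counting noise, with 363 and 614 counts. It had 0.851 and 0.877 CPM in Satb1 siRNA against 5.36 and 8.61 CPM in NT (−3.07, SE 0.54, adjusted p = 0.0382), and its call was lost without either Satb1 siRNA library, with adjusted p = 0.289 and 0.285. The most abundant H2A genes moved less. Hist2h2aa2 had 150 and 142 CPM in Satb1 siRNA against 199.5 and 197 CPM in NT (−0.49, SE 0.02, adjusted p = 2.84e-33). Hist2h2ac had 43.0 and 45.5 CPM in Satb1 siRNA against 83.9 and 83.1 CPM in NT (−0.97, SE 0.03, adjusted p = 1.57e-44). Hist1h2ah had 32.5 and 34.2 CPM in Satb1 siRNA against 53.3 and 52.6 CPM in NT (−0.72). The smallest fall of the class was that of Hist3h2a, with 34.6 and 33.0 CPM in Satb1 siRNA against 41.0 and 41.6 CPM in NT (−0.34, SE 0.03, adjusted p = 3.47e-15). Histone genes of 1 class are near-identical in sequence, and values of single genes depend on how the authors' counting divided shared reads.

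Of the 17 tested H2B genes, 15 fell. Hist2h2bb, the most abundant, had 81.7 and 81.1 CPM in high Satb1 siRNA libraries against 153 and 158 CPM in high NT libraries (log2 fold change −0.99, SE 0.02, adjusted p = 4.88e-47). Hist1h2bn had 12.7 and 11.9 CPM in Satb1 siRNA against 34.2 and 35.7 CPM in NT (−1.56, SE 0.04, adjusted p = 2.34e-44). Hist1h2bp, at a much lower level, had 0.464 and 0.694 CPM in Satb1 siRNA against 2.36 and 2.03 CPM in NT (−1.98, SE 0.19, adjusted p = 3.97e-15). The groups did not overlap in these genes. Hist1h2bc, one of the abundant members, differed little, with 49.2 and 48.1 CPM in Satb1 siRNA against 51.7 and 55.2 CPM in NT (−0.19, SE 0.03, adjusted p = 2.08e-07). Hist2h2be stood apart from the class. It had 12.8 and 12.6 CPM in Satb1 siRNA against 12.04 and 12.02 CPM in NT, and its log2 fold change of 0.02 (SE 0.06, adjusted p = 0.769) missed the threshold. Hist1h2bj was also not called (−0.76, SE 0.25, adjusted p = 0.112), with NT repeats of 615 and 846 counts that differed beyond counting noise. It passed in 6 of the alternatives tried, DESeq2 among them. Hist1h2bk, Hist1h2bf and the row named Hist3h2bb-ps were called, but each lost its call under at least 1 alternative, as did Hist3h2ba with DESeq2.

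H3 and H4 form the core tetramer of the nucleosome. Of 11 H3 genes, 10 fell. Hist2h3b had 0.406 and 0.836 CPM in high Satb1 siRNA libraries against 4.397 and 4.588 CPM in high NT libraries (log2 fold change −2.92, SE 0.16, adjusted p = 1.99e-20). Hist1h3h had 0.812 and 0.755 CPM in Satb1 siRNA against 4.09 and 5.02 CPM in NT (−2.59, SE 0.15, adjusted p = 9.87e-25). Hist1h3b, at a higher level, had 4.95 and 5.16 CPM in Satb1 siRNA against 20.3 and 19.9 CPM in NT (−2.04, SE 0.06, adjusted p = 2.20e-42). All 3 were well below their NT libraries. Hist1h3a fell least of the called H3 genes, with 2.67 and 2.79 CPM in Satb1 siRNA against 3.70 and 3.16 CPM in NT (−0.38, SE 0.11, adjusted p = 0.00259), and lost its call with DESeq2 and without the first NT library. Hist1h3i had 0.754 and 0.755 CPM in Satb1 siRNA against 0.605 and 0.561 CPM in NT (0.32, SE 0.23, adjusted p = 0.231) and was not called.

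All 12 H4 genes fell, and over a narrower range than the other classes, with log2 fold changes of −1.35 for Hist2h4 to −0.57 for Hist1h4i. Hist1h4d, the most abundant, had 29.9 and 29.5 CPM in high Satb1 siRNA libraries against 56.3 and 57.7 CPM in high NT libraries (log2 fold change −0.997, SE 0.03, adjusted p = 9.98e-42). Hist1h4i had 12.4 and 13.01 CPM in Satb1 siRNA against 18.1 and 18.2 CPM in NT (adjusted p = 2.35e-16). The H4 genes encode the same or nearly the same protein.

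Per length, by the authors' FPKM, the highest members of the high NT libraries were Hist2h2aa2 and Hist2h2bb. Hist2h2aa2 was at 280 and 270 FPKM in high Satb1 siRNA libraries and 386 and 379 FPKM in high NT libraries. Hist2h2bb was at 174 and 172 FPKM in Satb1 siRNA and 325 and 336 FPKM in NT. Hist1h4d and Hist2h2ac followed, with 192 and 192 FPKM for Hist1h4d and 170 and 171 FPKM for Hist2h2ac in NT. In high Satb1 siRNA they had 113 and 119 FPKM for Hist1h4d and 93.2 and 94.5 FPKM for Hist2h2ac. By mean FPKM, 58 of the 60 tested members were lower in the Satb1 siRNA libraries. The exceptions were Hist2h2be and Hist1h2bk, while by counts they were Hist2h2be and Hist1h3i.

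The promoters of 55 members were matched in the RefSeq table of build GRCm38.p6, by symbol or synonym, as 250 bases before to 50 after the start of the gene. They are described because the members moved together. The letters CCAAT, on either strand, were in 85.45% of members' promoters and in 37.41% of the 32851 promoters of the table. By class they were in every matched promoter of H1, H2A, H2B and H3 but in 3 of 11 of H4. TATAAA, on either strand, was in 58.18% of members' promoters and 13.62% of all. The octamer ATTTGCAT, known as the site of OCT1 in H2B promoters, was in 23.64% of members' promoters and 1.74% of all, and lay in 7 of 14 H2A and 6 of 15 H2B promoters and in none of the other classes. Some neighbouring H2A and H2B genes on opposite strands, such as Hist1h2ah and Hist1h2bk, have overlapping windows, so that the same letters are counted for both genes. A match is a run of letters, not a site shown to be used. The promoters of Hist2h2ac, which holds all 3 motifs, and of Hist1h4d, an H4 gene with 2 of them, are printed with every match on either strand in capitals, which do not overlap.
Hist2h2ac, chr3:96220831-96221130, minus strand: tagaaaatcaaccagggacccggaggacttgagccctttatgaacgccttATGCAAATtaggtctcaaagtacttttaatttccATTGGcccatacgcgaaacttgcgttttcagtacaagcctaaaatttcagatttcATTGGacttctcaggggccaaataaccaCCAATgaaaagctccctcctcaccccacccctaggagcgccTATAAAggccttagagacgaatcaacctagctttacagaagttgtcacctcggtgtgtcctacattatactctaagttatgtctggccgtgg
Hist1h4d, chr13:23581318-23581617, plus strand: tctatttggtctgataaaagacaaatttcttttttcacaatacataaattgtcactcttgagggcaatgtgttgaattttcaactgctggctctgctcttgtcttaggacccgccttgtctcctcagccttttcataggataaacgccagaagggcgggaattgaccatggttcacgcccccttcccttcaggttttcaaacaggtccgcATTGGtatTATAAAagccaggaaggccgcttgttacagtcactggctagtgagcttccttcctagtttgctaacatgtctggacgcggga
In the high experiment Hist2h2ac changed by −0.97 and Hist1h4d by −0.997 on the log2 scale. The other tested members with all 3 motifs ranged from −2.01 for Hist1h2ab to −0.66 for Hist1h2ac. A link between these letters and the change was not tested.

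Genes of the cell cycle were lower in the same libraries, by less. Of 40 genes of DNA replication and S phase, 33 fell, 2 rose and 5 were not called in the high experiment, with a median log2 fold change of −0.35. Mcm5, a subunit of the replicative helicase, had 25.1 and 25.7 CPM in high Satb1 siRNA libraries against 49.4 and 47.8 CPM in high NT libraries (−0.99, SE 0.03, adjusted p = 1.64e-39). Pcna, the sliding clamp of DNA polymerases, changed by −0.43. The largest fall of the list was that of Ccne1, the cyclin of S phase entry (−1.20), and Tyms and Pola2 were the 2 genes that rose (0.17 and 0.12). Of 23 genes of G2 and mitosis, 20 fell, none rose and 3 were not called, with a median of −0.53. Mki67, the proliferation marker, had 164 and 163 CPM in Satb1 siRNA against 239 and 237 CPM in NT (−0.59, SE 0.02, adjusted p = 2.36e-45). Top2a, which untangles DNA in mitosis, changed by −0.72. The background for both lists is the 33.2% of all genes called lower.

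The factors that make and end histone mRNA moved less than the histone genes. Of the 22 genes listed for this, 14 fell, 3 rose and 5 were not called, with a median of −0.18. Mitd1, which is in the list and fell (−0.25), is not known as such a factor. Slbp, the stem-loop-binding protein, had 85.8 and 84.8 CPM in high Satb1 siRNA libraries against 97.6 and 102 CPM in high NT libraries (−0.28, SE 0.02, adjusted p = 1.75e-16). Npat, the coactivator of histone gene transcription in S phase, had 46.6 and 46.8 CPM in Satb1 siRNA against 38.8 and 40.1 CPM in NT (0.19, SE 0.03, adjusted p = 1.14e-07). Slbp and Npat thus moved in opposite directions between the same libraries. Eri1, the exonuclease that trims histone mRNA ends, fell (−0.19, adjusted p = 2.69e-06), as did Srrt, which couples cap-binding to 3′ end formation (−0.27, adjusted p = 1.72e-17). Lsm10, of the U7 core ring, fell (−0.30, adjusted p = 0.000841, but 0.0571 with DESeq2), while Lsm11, its partner, was not called (−0.10, adjusted p = 0.193). Casp8ap2, a protein of the histone locus body, was barely past the threshold (−0.05, adjusted p = 0.0276) and was not called relative to library size, with DESeq2 or without the first Satb1 siRNA library.

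Histone genes that are expressed outside S phase, and chaperones, also moved less. Of 13 replication-independent variants in the table, 9 were tested, of which 5 fell, none rose and 4 were not called (median −0.11). H3f3b, which encodes H3.3, had 730 and 743 CPM in high Satb1 siRNA libraries against 897 and 901 CPM in high NT libraries (−0.34, SE 0.01, adjusted p = 3.03e-18). H2afy, the gene of macroH2A, changed by −0.31. H2afx, the variant that is phosphorylated at DNA breaks, had the largest fall of the list (−0.75). Whether its mRNA was made independently of replication in these cells was not tested. Among 22 chaperones and deposition factors, 13 fell, 1 rose and 8 were not called (median −0.17). Daxx, the H3.3 chaperone, fell (−0.57, SE 0.02, adjusted p = 4.29e-33) and Atrx, its partner, rose (0.28, SE 0.01, adjusted p = 2.73e-44).

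**Figure D3:**
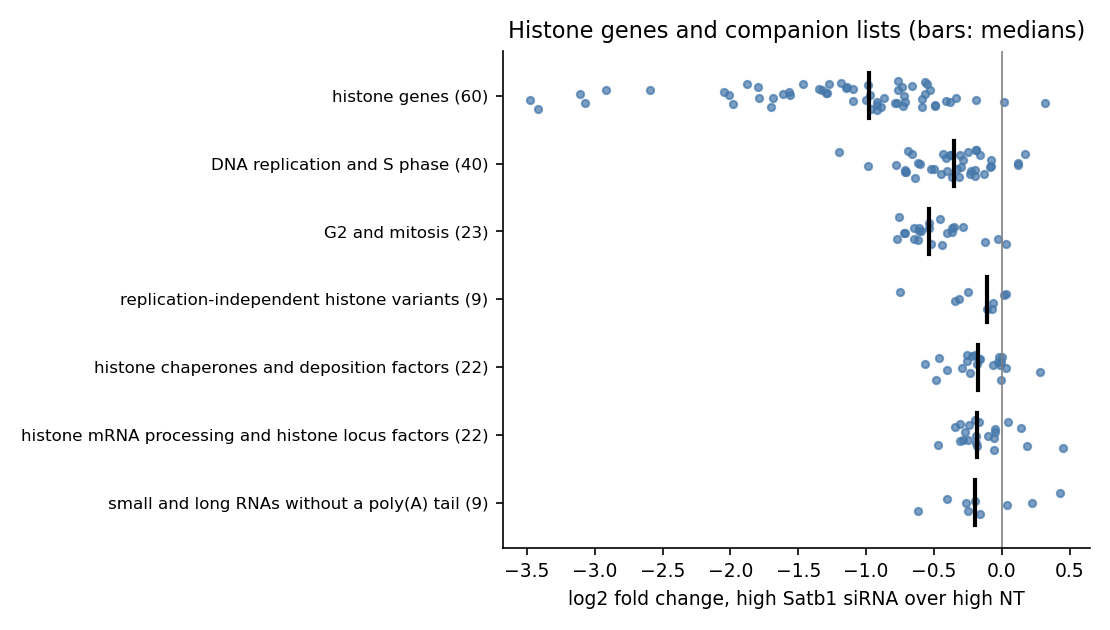
Log2 fold change of high Satb1 siRNA over high NT for the 60 tested histone genes and for 6 companion lists, with each list's number of tested genes in brackets. Each point is a gene and the bars are medians, which lie at −0.98 for the histone genes, −0.35 and −0.53 for the cell cycle lists and between −0.20 and −0.11 for the others.

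Other RNAs, most of which lack a poly(A) tail, did not share 1 direction in the high experiment. Of 9 tested, 6 fell, 2 rose and 1 was not called. Rmrp, the RNA of the MRP ribonuclease, had 868 and 855 CPM in high Satb1 siRNA libraries against 1098 and 1094 CPM in high NT libraries (−0.40, adjusted p = 4.39e-63). Neat1, the RNA scaffold of paraspeckles, had 1032 and 1033 CPM in Satb1 siRNA against 739 and 736 CPM in NT (0.43, adjusted p = 5.45e-77). The box H/ACA RNAs (Snora) summed to 451 and 460 CPM in Satb1 siRNA against 455 and 461 CPM in NT. Of marker lists for other cells, those of B and plasma cells summed to 36.2 and 34.5 CPM in high Satb1 siRNA against 19.1 and 19.1 CPM in high NT, with none of 7 markers at 0. T and NK cell markers summed to 55.7 and 55.5 CPM in Satb1 siRNA and 41.9 and 39.9 CPM in NT, neutrophil markers to 85.1 and 86.1 CPM in Satb1 siRNA and 73.0 and 71.9 CPM in NT, and markers of tumour, mesothelial and epithelial cells to 830 and 825 CPM in Satb1 siRNA and 740 and 742 CPM in NT. By single markers, 4 of 7 B and plasma cell, 3 of 5 tested T and NK cell, 3 of 6 tested neutrophil (2 lower) and 5 of 8 tumour, mesothelial and epithelial markers (1 lower) were higher, as were 5 of 11 dendritic cell markers (5 lower) and 7 of 11 macrophage markers (3 lower). Among all 6 lists, Camp, a neutrophil marker, was the only gene with a library at 0 counts. The part of these shifts in the histone result was not tested, and fewer cells of a type and less RNA per cell cannot be told apart in bulk libraries.

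The control libraries of the experiments differed far more than the siRNA groups did. Of 27 members whose mean log2 CPM over the groups compared was 0 or more, 24 were at least 2-fold lower in low NT than in high NT and none was higher. The background was 20.3% of 13342 genes lower and 27.0% higher. The summed level was 120 CPM in low NT against 1532 and 1539 CPM in high NT, 12.8-fold lower relative to library size and 8.29-fold lower with TMM. With 1 sample per group this is a description of the libraries, without a test. All that differed between the experiments coincides with this contrast and cannot be told apart in it.

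Many members had no counts in the low libraries. In low NT 30 of 62 members had a count of 0, in low Satb1 siRNA 37 had 0, and 22 were at 0 in both. Of all 27634 genes 34.8% were at 0 in low NT, 33.3% in low Satb1 siRNA and 29.1% in both, so these shares alone do not set the members apart. Of the 55 members with at least 100 counts over both high NT libraries, 26 were at 0 in low NT, against 2.34% of all such genes (353 of 15057). Relative to a floor of 3 counts in the low NT library, these 26 were at least 12.1-fold to at least 1399-fold lower in low NT. Hist2h2bb had 0 CPM in low NT against 153 and 158 CPM in high NT, at which level low NT would hold 4197 counts. Hist1h2ah had 0 CPM in low NT against 53.3 and 52.6 CPM in high NT, at least 477-fold lower. These bounds are relative to library size. With TMM every low NT over high NT ratio is 1.55 times as high, and the bounds run from at least 7.79-fold to at least 904-fold. Other members were closer between the experiments. Hist3h2a had 32.0 CPM in low NT against 41.0 and 41.6 CPM in high NT, a ratio of 0.774 relative to library size (exact 95% counting interval 0.72 to 0.832). With TMM its direction turns, to a ratio of 1.198 (1.11 to 1.29). Hist2h2be had 6.77 CPM in low NT against 12.04 and 12.02 CPM in high NT, a ratio of 0.563 relative to library size (0.48 to 0.656) and of 0.871 with TMM (0.744 to 1.015). Hist1h1c, with 51.4 CPM in low NT against 179 and 178 CPM in high NT, had a ratio of 0.288 relative to library size and of 0.446 with TMM. At the other end, Hist2h2aa2 had 1.70 CPM in low NT against 199.5 and 197 CPM in high NT, a ratio of 0.00859 relative to library size and of 0.0133 with TMM.

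**Figure D4:**
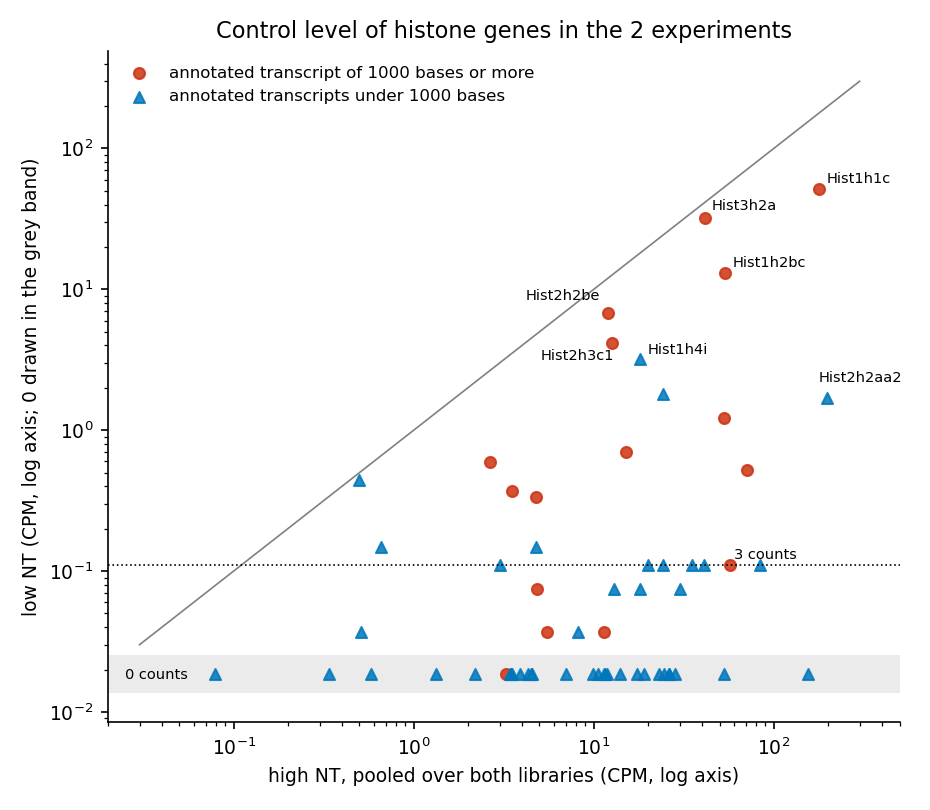
Level of each member with counts in high NT, in low NT (vertical) and in high NT pooled over both libraries (horizontal), in CPM on log axes, with the line of equal levels. Members at 0 in low NT are drawn in the grey band, and the dotted line is 3 counts. Most triangles, members with annotated transcripts under 1000 bases only, lie at or below that line, while most members near the line of equal levels are circles, with an annotated transcript of 1000 bases or more.

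The members still seen in the low libraries were mostly those with long annotated transcripts. By a split at 1000 bases, chosen after the values were seen, 16 members have a GENCODE transcript at least that long, and 10 of these had at least 20 counts in a low library. Of the 46 members with shorter transcripts only, 3 did: Hist1h2bg, Hist1h4i and Hist2h2aa2. The 6 long members under 20 counts were Hist1h2bh, Hist1h2br, Hist1h3f, Hist1h4d, Hist2h4 and Hist4h4. Members with long transcripts made up 92.2% of the histone counts in low Satb1 siRNA and 93.0% in low NT, against 41.3% and 41.6% in high Satb1 siRNA and 34.5% and 34.6% in high NT. In the high experiment their median log2 fold change was −0.63, against −1.17 for the members with shorter transcripts. Of the stem-loops printed above, those of Hist3h2a, Hist1h1c and Hist2h3c1 lie in long transcripts. These genes had 36.2, 68.7 and 5.99 CPM in low Satb1 siRNA and 32.0, 51.4 and 4.18 CPM in low NT. Hist1h2ab and Hist1h4f had 0 counts in both low libraries. Hist1h3b and Hist2h2ac each had 0 counts in low Satb1 siRNA and 3 counts in low NT.

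Several other RNAs without a poly(A) tail were also scarce in the low libraries, but not all. Neat1 was listed with them, although not all of its transcripts lack a tail and the counts are per gene. It had 511 CPM in low Satb1 siRNA and 422 CPM in low NT, against 1032 and 1033 CPM in high Satb1 siRNA and 739 and 736 CPM in high NT. Rmrp had 0.244 CPM in low Satb1 siRNA and 0 CPM in low NT. Rnu12, the RNA of the minor spliceosome, had 0.0815 CPM in low Satb1 siRNA and 0 CPM in low NT, against 257 and 260 CPM in high Satb1 siRNA and 300 and 297 CPM in high NT. Rnu1b2, a U1 RNA, had 4.68 CPM in low Satb1 siRNA and 0.407 CPM in low NT, against 16690 and 16831 CPM in high Satb1 siRNA and 15205 and 15121 CPM in high NT. Malat1, whose end is a triple helix, had 1488 CPM in low Satb1 siRNA and 828 CPM in low NT, against 31703 and 31835 CPM in high Satb1 siRNA and 26163 and 26153 CPM in high NT. The Snora sum was 21.7 CPM in low Satb1 siRNA and 19.3 CPM in low NT, against 451 to 461 CPM in the high libraries. Box C/D RNAs (Snord) were not as scarce by their sum, which was 2170 CPM in low Satb1 siRNA and 2533 CPM in low NT. In the high libraries it was 2578 to 2608 CPM. Most of the low NT sum lay in Snord15b, Snord96a, Snord100 and Snord34, with 635, 728, 523 and 562 CPM. Snord17 had 0.481 CPM in low NT against 122 and 120 CPM in high NT, and Snord22 22.3 CPM against 192 and 194 CPM. With TMM, 6 of the 14 compared between the controls were at least 2-fold lower in low NT and 1 was at least 2-fold higher. Of all 65, of which 42 were tested in the high experiment, 33 had 0 counts in low NT. The labels name the same extraction and library kit for all libraries, and the part of library chemistry in the histone result was not tested. Cell cycle genes were closer between the control libraries than histone genes were. The S phase list summed to 881 CPM in low NT against 1467 and 1465 CPM in high NT, and the list of G2 and mitosis to 390 CPM in low NT against 923 and 927 CPM in high NT. Relative to library size these sums were 1.66-fold and 2.37-fold lower in low NT, but with TMM 1.08-fold and 1.53-fold lower.

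In the low experiment the histone genes that could be measured did not move in 1 direction. At least 20 counts in a low library were found for 13 members, but Hist1h2ac, Hist1h1e, Hist1h3d and Hist1h2be passed that limit only through the Satb1 siRNA library, so that counts of direction are given over the 9 members with at least 20 counts in both, a limit chosen after the values were seen. With TMM scaling 4 of the 9 had a log2 ratio of Satb1 siRNA over NT above 0, and 4 lay above the median of all genes (−0.07). Relative to library size the median of all genes was 0.29, and 7 of the 9 were above 0 but 4 above that median. Of the 11 members whose mean log2 CPM was 0 or more, 3 were at least 2-fold higher and none at least 2-fold lower, against 8.13% and 3.36% of 12977 genes. Among the 3, Hist1h2ac and Hist1h1e passed that level only through the Satb1 siRNA library, with 0.37 and 0.518 CPM in low NT. No direction is therefore read from this count. There is 1 library per group and no test, and intervals are exact and cover counting error only.

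Hist1h2ac had 47 counts (1.91 CPM) in low Satb1 siRNA against 10 counts (0.37 CPM) in low NT, a log2 ratio of 1.94 and a ratio of 4.04 (95% interval 2.02 to 8.98). Hist1h1e had 51 counts (2.08 CPM) in Satb1 siRNA against 14 counts (0.518 CPM) in NT, a log2 ratio of 1.60 and a ratio of 3.13 (1.71 to 6.13). Hist1h2bg had 144 counts (5.86 CPM) in Satb1 siRNA against 49 counts (1.81 CPM) in NT, a log2 ratio of 1.33 and a ratio of 2.53 (1.82 to 3.57). These are the 3 members of the 11 that were at least 2-fold higher. Hist1h3d, below that level filter, had 27 counts in Satb1 siRNA against 9 in NT (ratio 2.58, 1.18 to 6.24). Hist2h2aa2, at the lower end, had 31 counts in Satb1 siRNA against 46 in NT, a log2 ratio of −0.77 and a ratio of 0.58 (0.355 to 0.934). Hist1h4i had 74 counts in Satb1 siRNA against 86 in NT (ratio 0.74, 0.535 to 1.02), and Hist2h2be had 175 counts in Satb1 siRNA against 183 in NT (ratio 0.823, 0.665 to 1.02). The best-covered member, Hist1h1c, had 1686 counts in Satb1 siRNA against 1389 in NT, a ratio of 1.04 with TMM (0.972 to 1.12). Over the 9 members with at least 20 counts in both libraries, the interval lay above 1 in 2 and below 1 in 2 with TMM, and above 1 in 5 and below 1 in none relative to library size. Cell cycle sums were 1314 CPM in low Satb1 siRNA against 881 CPM in low NT for S phase and 591 CPM in Satb1 siRNA against 390 CPM in NT for G2 and mitosis. Their log2 ratios were 0.58 and 0.60 relative to library size but 0.22 and 0.24 with TMM, so that their size rests on the scaling. Markers of tumour, mesothelial and epithelial cells summed to 565 CPM in low Satb1 siRNA against 123 CPM in low NT, macrophage markers to 10043 CPM in Satb1 siRNA against 15098 CPM in NT, and neutrophil markers to 107 CPM in Satb1 siRNA against 291 CPM in NT. Their part in the low ratios was not tested.

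**Figure D5:**
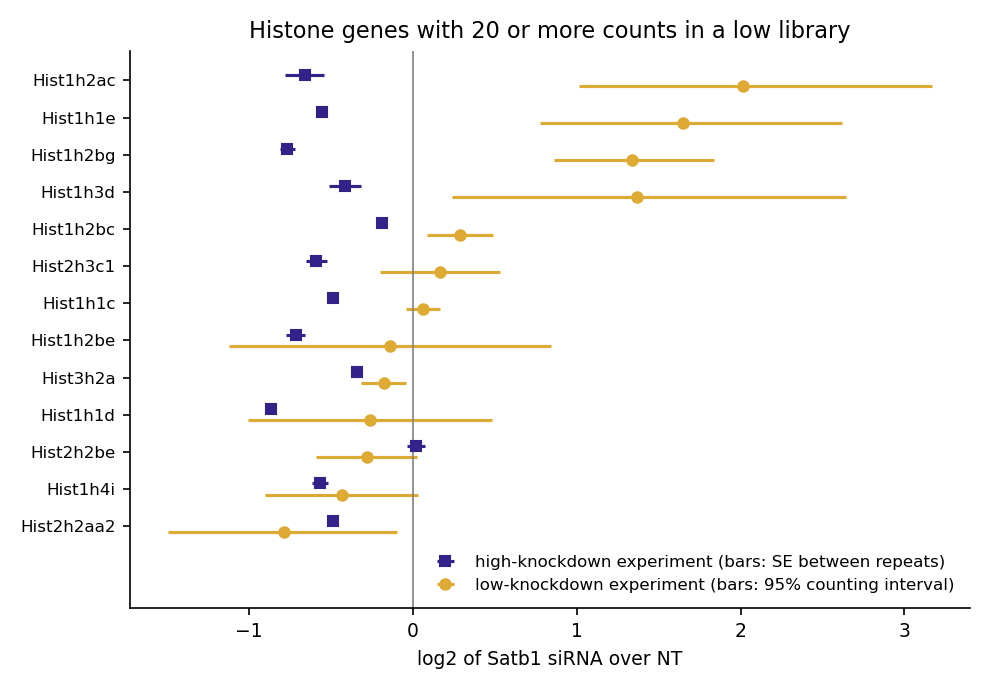
Log2 of Satb1 siRNA over NT in the high experiment (squares, bars: SE between repeats) and in the low experiment (circles, bars: exact 95% counting intervals, TMM scaling) for the 13 members with at least 20 counts in a low library. All squares but that of Hist2h2be lie left of 0, while 7 circles lie right of it. Hist1h2ac, Hist1h1e, Hist1h3d and Hist1h2be were included only through their count in low Satb1 siRNA.

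The siRNA effects of the experiments differed for part of these genes when the difference itself was tested. In edgeR, over 4 group means, 11 of the 60 tested members were called for the high effect minus the low effect, against 39.7% of 20971 genes called in either direction. These shares cannot be set against each other, since 49 of the 62 members had under 20 counts in both low libraries. Of these 11, 4 (Hist1h2bm, Hist1h3c, Hist1h3h and Hist1h3i) had 2 to 7 counts in low Satb1 siRNA and 0 in low NT, and their fitted size is not given. The other 7 are among the 13 members with at least 20 counts in a low library, and 4 of them are among the 9 with at least 20 counts in both. The 4 with at least 20 counts in both had a negative value. Hist1h2ac, Hist1h1e and Hist1h3d also had one, but passed 20 counts only through low Satb1 siRNA. That selection favours a negative value, so no direction is read from them. Hist1h2ac had a difference of −2.68 (SE 0.43, adjusted p = 7.46e-08), Hist1h1e of −2.20 (SE 0.37, adjusted p = 3.24e-07) and Hist1h2bg of −2.11 (SE 0.22, adjusted p = 3.32e-14). Hist1h3d, Hist2h3c1, Hist1h1c and Hist1h2bc were also called. Hist3h2a was not (−0.17, adjusted p = 0.0679), nor were Hist2h2aa2, Hist1h4i and Hist2h2be. The spread in this test comes from the near-identical high repeats, and the lone low libraries are assumed to vary like them. The comparison is therefore one of libraries.

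With repeats summed and the experiment as the unit of replication, no histone gene was called with TMM scaling. In edgeR with experiment and siRNA as terms, 57 members were tested with 1 residual degree of freedom, and the smallest adjusted p was 0.277. At an unadjusted p under 0.05 there were 22 members, against 8.56% of 19068 genes, and 50 of the 57 had a value below 0. Of those 22, only Hist1h1d and Hist2h2aa2 had at least 20 counts in a low library. These tallies therefore rest mostly on the high libraries and do not show a repeat of the effect in the low experiment. DESeq2 also called none. Relative to library size alone the same fit called 3 members, Hist1h2ap, Hist1h2an and Hist1h3b. With TMM, of all genes 6 (0.0315%) were called in edgeR. The biological coefficient of variation was 0.232 in this fit, against 0.00988 between the high repeats. Hist1h2ap (−3.40, SE 0.67) had the smallest adjusted p, and both its low libraries were at 0, so that it rests on the high libraries.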

How the data were processed

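RNA-seq of 6 libraries was used. Per the file headers, the deposited table gives an FPKM value and a count per gene and library. FPKM, as the authors deposited it, is scaled by gene length and library size. The deposited counts were taken as estimated counts, because the submitters' processing notes name RSEM 1.2.12 (and DESeq2 and build mm9). All were whole numbers already. Aligner, filters and strand setting: not given in the sources used here. RSEM divides reads shared by near-identical histone genes.

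The high groups were compared with edgeR 4.0.16 (R 4.3.3, quasi-likelihood F-test, robust, TMM, filterByExpr, two-sided, Benjamini-Hochberg over all genes, threshold 0.05). DESeq2 1.42.0 was an alternative. The low groups and the controls were compared without a test, by log2 CPM ratios (prior count 2, TMM over 6 libraries, mean log2 CPM at or above 0). Ratio intervals are exact (Clopper-Pearson, 95%). Depth was 24553454 to 71272720 counts, and intervals and floors (3 counts) cover counting error only. Motifs were read from GENCODE M21 and RefSeq, which are of another build than the counts. The steps were tested on simulated data.

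Members and gene lists were chosen with earlier results of these data known. Besides Satb1 and fixed histone mRNA factors, members were described in full by rule: the 12 most abundant, the 8 lowest and 4 highest log2 fold changes of the high experiment (mean log2 CPM at least 0), the 3 lowest and 3 highest low ratios, and the 2 genes of each list with the smallest p. Other members are named to account for them, chosen after their values were seen.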

Additional observations from a re-analysis of the deposited data

Results flagged for a closer look

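For 7 of the 13 histone genes with at least 20 counts in a low library, the effect of Satb1 siRNA in the high experiment differed from that in the low experiment, by edgeR's test of the difference (high effect minus low effect, log2). The values were −2.677 for Hist1h2ac, −2.203 for Hist1h1e, −2.109 for Hist1h2bg, −1.782 for Hist1h3d, −0.7581 for Hist2h3c1, −0.5566 for Hist1h1c and −0.4824 for Hist1h2bc. Hist1h2ac, Hist1h1e and Hist1h3d rest on 9 to 14 counts in low NT, and they entered the 13 only through the Satb1 siRNA library. Hist1h2bm, Hist1h3c, Hist1h3h and Hist1h3i were also called, on 2 to 7 counts in low Satb1 siRNA and 0 in low NT, so that no size is given for them. Over all 20971 genes tested, at any count, 39.7% were called in either direction. Of the 9 members with at least 20 counts in both low libraries, 4 were called. Each low group is 1 library, and the spread in this test comes from the near-identical high repeats.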

How the results depend on the processing

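In the high experiment the members called lower were 57 relative to library size, 54 with DESeq2, 58 with no filter, 57 over 4 group means and 55 to 58 when each library was left out, and none was called higher in any of these. DESeq2 lost Hist1h2bk, Hist1h3a, Hist3h2ba and Hist3h2bb-ps and gained Hist1h2bj. Genes called higher numbered 4175 with DESeq2 against 6645 in edgeR. With the replicate block 58 members were lower. The numbers gave no pairing, with a correlation of −0.04 between same-numbered libraries over all genes (0.17 over the 60 tested members) and only 2 pairs. In the low experiment 1 member was at least 2-fold higher at a mean log2 CPM of at least 2, against 3 at 0, because fewer genes pass. The difference between experiments was called for 9 of 13 members relative to library size and for 7 to 8 when a high library was left out. In the fit over both experiments, 3 members were called relative to library size alone (Hist1h2ap, Hist1h2an and Hist1h3b) and none with TMM; the cause was not tested. With TMM the ratio of sums was −0.82 against −0.76 (log2) in the high experiment and 0.049 against 0.40 in the low, and low NT was 8.29-fold against 12.8-fold below high NT. Low counts limit the low ratios, since 49 members had under 20 counts in both low libraries. Scaled by library size alone, the high NT level of Hist2h2bb would give 4197 counts in low NT, where it had 0. The part of depth and composition in this was not tested.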

Other observations

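Hist1h4n had 478 and 524 counts in high Satb1 siRNA libraries against 1535 and 1691 counts in high NT libraries, while the authors' FPKM for it was 0 and 0 in Satb1 siRNA and 0.03 and 2.79 in NT.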
